A study of Homo sapiens with 96 samples.

Results

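The genes of sterol and fatty acid synthesis that are classical targets or regulators of the SREBP transcription factors were followed through 1 circadian day in cells with and without the clock activator BMAL1. They were taken by name, with no cut on a measured value, from a list of 34 symbols. That list was chosen with earlier results of these data known. Of the 34 symbols, 32 were found in all 8 deposited tables, among 19438 genes in all. The absent symbols SC4MOL and SC5DL are older names of MSMO1 and SC5D, which are present. The 32 genes comprise 18 enzymes of cholesterol synthesis, 6 genes of SREBP regulation and sterol transport, and 8 enzymes of fatty acid synthesis, elongation and desaturation.

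All samples were U2-OS cells, a human osteosarcoma line, here with a luciferase reporter under the Per2 promoter. The wild-type group received no siRNA. The knockdown group was seeded more thinly, at 560000 cells per 15 cm plate, and transfected by Lipofectamine RNAiMAX with 120 pmol of a mix of 5 siRNAs against Bmal1. Dexamethasone, a glucocorticoid that resets the clock, was given to both groups at 0.1 µM in medium with luciferin. Both were collected every 2 h from 24.5 h after synchronisation (CT00 to CT22), after a short exposure to 100 µg/mL cycloheximide, which holds ribosomes on the mRNA. The labels name no control siRNA, so the loss of BMAL1 cannot be told apart from transfection or from seeding density. They also do not say whether the medium after synchronisation held serum, a source of sterols. Total RNA (mRNA abundance) and ribosome-protected fragments (footprints, which report ribosomes on the mRNA) were sequenced in 2 replicates for each of 12 times, giving 96 libraries, 24 for each treatment and assay.

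In units of 1000000 reads, total RNA libraries held 13.6 to 20.1 in 46 of 48 cases, and 2.56 to 2.66 in the other 2, which are the knockdown libraries of replicate 2 at CT14 and CT18. Footprint libraries held 2.50 to 5.82. The target gene ARNTL, which encodes BMAL1, fell from 32.5 ± 11.5 CPM (counts per 1000000 reads, SD, n = 24) in wild-type total RNA to 4.84 ± 0.710 CPM (n = 24) in knockdown. Of 10 markers of the bone and mesenchymal lineage, 7 averaged at least 1 CPM in total RNA, led by VIM and SPARC, while SP7, BGLAP and COL1A2 averaged well below that in both groups. Markers of fat cells, a cell type rich in these enzymes, summed to at most 1.11 CPM in any total RNA library, with ADIPOQ and LEP at 0.00 CPM, and those of liver cells to at most 0.716 CPM. Other lists were not empty. The epithelial list summed to 7.35 to 23.7 CPM in wild-type and 7.67 to 15.3 CPM in knockdown total RNA. The neuronal list summed to 9.56 to 14.7 CPM and 8.81 to 20.2 CPM there. In footprints the neuronal list summed to 44.0 to 62.6 CPM in wild-type and 22.9 to 37.7 CPM in knockdown, mostly RBFOX3. The blood list summed to 1.57 to 3.38 CPM in wild-type and 9.84 to 17.6 CPM in knockdown total RNA. Its member CD68 made up most of that sum, with CD3E and HBB at or near 0 in both groups; its part in the results below was not tested.

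SREBF1 and SREBF2 encode SREBP-1 and SREBP-2, membrane-bound precursors of transcription factors that drive lipid synthesis. SCAP escorts them from the endoplasmic reticulum to the Golgi, where proteases release the active part, and INSIG1 and INSIG2 hold SCAP back when sterols are plentiful. SREBP-2 acts mainly on cholesterol synthesis and SREBP-1c mainly on fatty acid synthesis, and both act on their own regulators, INSIG1 included. BMAL1, with its partner CLOCK, binds E-boxes such as CACGTG and sits at the top of the clock's transcriptional loop. Lipid synthesis in the liver is a textbook example of a pathway under daily control.

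The promoters of 5 genes are shown as examples of where such elements lie near start sites, and do not represent the 32 genes. INSIG1, SC5D and SCAP hold an E-box. HMGCS1, IDI1, EBP and FADS2, where no CACGTG was found, are not shown. Sequences come from RefSeq (GRCh38.p14, another build than the one used for counting), as 300 bases per start site, 250 before it and 50 after. Of the 32 genes, 28 matched, with 38 windows; ACAT2, FASN, FDFT1 and SQLE had no entry. Capitals mark the E-box CACGTG, the CCAAT box bound by NF-Y (read as ATTGG on the other strand), or TCACCCCAC, the core of the classical sterol regulatory element. All are written 5′ to 3′ in the direction of the gene. SREBF2 lies at chr22:41832960-41833019 (plus strand), INSIG1 at chr7:155297698-155297837 (plus), SC5D at chr11:121292626-121292730 (plus), SCAP at chr3:47475977-47476016 (minus) and SCD at chr10:100346993-100347062 (plus).
SREBF2: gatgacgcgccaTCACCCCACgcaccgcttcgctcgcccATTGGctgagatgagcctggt
INSIG1: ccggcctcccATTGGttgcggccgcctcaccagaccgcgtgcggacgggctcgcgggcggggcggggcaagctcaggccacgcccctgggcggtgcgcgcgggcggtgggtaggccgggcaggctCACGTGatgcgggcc
SC5D: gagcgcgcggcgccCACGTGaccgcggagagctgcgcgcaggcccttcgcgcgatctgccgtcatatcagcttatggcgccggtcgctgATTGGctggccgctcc
SCAP: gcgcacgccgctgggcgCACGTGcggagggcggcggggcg
SCD: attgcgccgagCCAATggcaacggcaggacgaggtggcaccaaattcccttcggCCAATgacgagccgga

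Both strands of each window were searched. CCAAT can share letters with its own reverse complement, as it does once for IDI1, and every TCACCCCAC is also a TCACNCCAC. The E-box shown starts 55 bases before the start site for INSIG1, 58 for SCAP and 131 for SC5D, and TCACCCCAC starts 133 bases before that of SREBF2. CACGTG was present in 6 of the 38 windows, those of 5 genes (ELOVL5, INSIG1, LSS, SC5D and SCAP), and in 7.26% of all 35116 RefSeq windows. CCAAT was present in 25 of the 38 windows, those of 21 genes, and in 34.6% of all windows. TCACCCCAC was found in 1 of the 38 windows, that of SREBF2, and in 0.430% of all windows, and the looser TCACNCCAC likewise for SREBF2, and in 1.13% of all windows. These are matches of letters and carry no statement on binding.

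The first comparison asked how the level of these genes, averaged over the day, differed between knockdown and wild-type cells. The knockdown did not move them as a block. HMGCS1, which makes HMG-CoA at the head of the sterol pathway, and FASN, the fatty acid synthase, were higher, while IDI1 (isopentenyl diphosphate isomerase), EBP (the sterol isomerase late in the pathway), INSIG1 and ACLY, which makes the acetyl-CoA for both branches, were lower. In total RNA 23 of the 32 genes passed the test (limma, Benjamini-Hochberg adjusted p under 0.05 over all genes), 14 higher and 9 lower. Across all 13188 genes tested, 41.8% were called higher and 39.9% lower, so the share called higher was near that of all genes and the share called lower was below it. In footprints 22 of 31 passed, 14 higher and 8 lower, against 37.4% and 38.1% of all genes; TM7SF2, with 0 to 3 footprint reads per library, was not tested there. In bulk samples, a change in the share of expressing cells and a change in RNA per cell cannot be told apart.

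**Figure D1:**
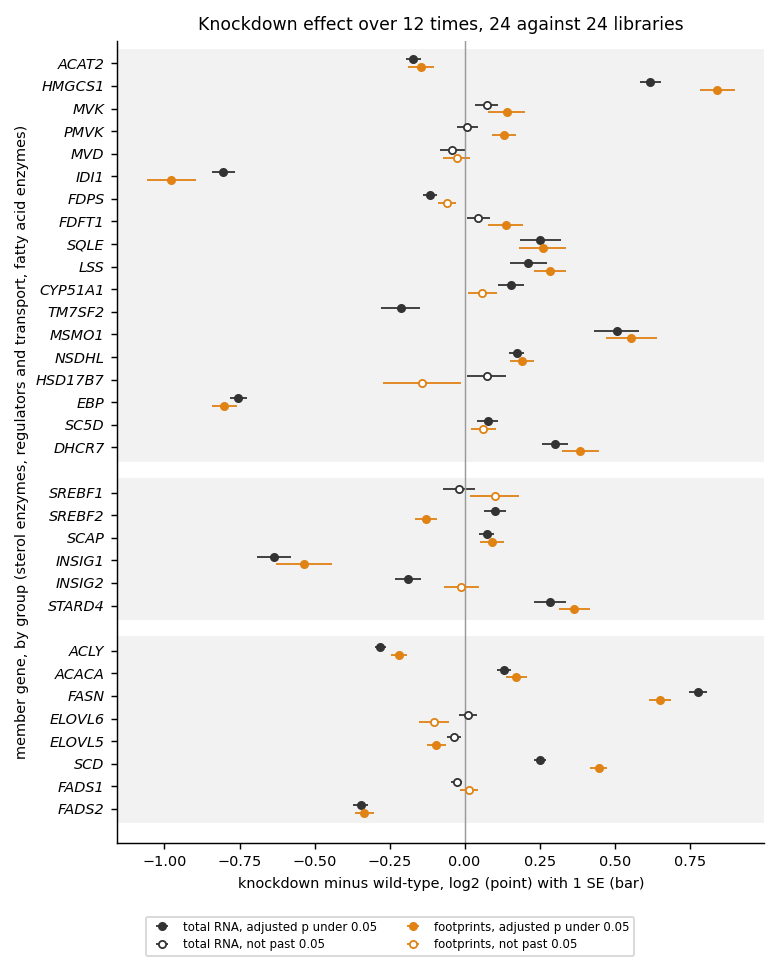
Knockdown minus wild-type difference of each gene, averaged over 12 times (x axis, log2; points, with bars of 1 SE), for total RNA (black) and footprints (orange), with filled points where the adjusted p was under 0.05. HMGCS1 and FASN sit farthest to the right (0.62 and 0.78 in total RNA), IDI1 and EBP farthest to the left (-0.80 and -0.75), and the remaining sterol enzymes spread on both sides of 0.

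HMGCS1 ranged from 71.0 CPM over a median of 84.1 to 95.6 CPM in the 24 wild-type total RNA libraries, and from 103.3 over 126 to 154 CPM in the 24 knockdown libraries. Every knockdown library lay above every wild-type library. The difference was 0.62 ± 0.04 (log2, SE), or 1.54-fold, with an adjusted p of 9.96e-17 (limma). Its footprints behaved alike, at 171 to 258 CPM (median 214) against 283 to 501 CPM (median 387), again without overlap, and differed by 0.84 ± 0.06.

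IDI1 moved the other way. Wild-type total RNA held 28.4 to 39.0 CPM (median 35.4) and knockdown total RNA 14.6 to 23.1 CPM (median 19.8), with no overlap and a difference of -0.80 ± 0.04 (adjusted p 9.39e-19, limma). In footprints the ranges touched (17.4 to 42.0 against 10.9 to 23.9 CPM), 21 of 24 knockdown libraries lay below all wild-type ones, and the difference was -0.98 ± 0.08. IDI1 is one of 9 genes here whose span overlaps another gene of the tables in RefSeq, in its case WDR37 and the antisense gene IDI2-AS1, and the sources used here do not say whether counting used strand.

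EBP total RNA was 69.0 to 93.8 CPM (median 82.5) in wild-type and 37.4 to 57.8 CPM (median 50.3) in knockdown, without overlap. The difference of -0.75 ± 0.03 in total RNA (adjusted p 5.02e-22, limma) and of -0.80 ± 0.04 in footprints was present at 12 of 12 times in both assays. The libraries of each treatment did not overlap for 2 of the genes above (HMGCS1, FASN) and 3 below (IDI1, EBP, ACLY) in total RNA, where 19.9% of all genes showed such a gap. In footprints this held for HMGCS1 and FASN alone, against 11.9% of all genes.

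Among the remaining sterol enzymes the rises were smaller. MSMO1, the C-4 methyl oxidase, rose by 0.51 ± 0.07 in total RNA (66.7 ± 11.9 to 94.1 ± 10.9 CPM, SD, n = 24 each) and DHCR7, the last reductase of the pathway, by 0.30 ± 0.04. SQLE (squalene epoxidase) rose by 0.25 ± 0.07, LSS (lanosterol synthase) by 0.21 ± 0.06, NSDHL by 0.17 ± 0.03, CYP51A1 (lanosterol demethylase) by 0.15 ± 0.04 and SC5D by 0.08 ± 0.04. ACAT2, which joins acetyl-CoA units, fell by 0.17 ± 0.03, FDPS (farnesyl diphosphate synthase) by 0.11 ± 0.02 and the weakly expressed reductase TM7SF2 by 0.21 ± 0.06. MVK, PMVK and MVD, the enzymes that turn mevalonate into isoprenoid units, and FDFT1 and HSD17B7 did not pass the test, with differences between -0.04 and 0.07. Over the 18 sterol enzymes the median difference was 0.07, with 8 higher and 5 lower, beside 0.01 over all genes.

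MSMO1 total RNA was 51.0 to 82.6 CPM (median 64.0) in wild-type and 71.4 to 109.8 CPM (median 96.02) in knockdown libraries, and 21 of 24 knockdown libraries lay above all wild-type ones. DHCR7 gave 49.4 to 72.4 CPM (median 55.7) and 59.9 to 81.1 CPM (median 73.0). SQLE ranged more widely in wild-type cells, from 96.9 to 168 CPM (median 125), than in knockdown cells, from 135 to 168 CPM (median 154), and 2 of 24 knockdown libraries exceeded all wild-type ones. For MSMO1, DHCR7 and SQLE the ranges of the treatments overlapped, unlike those of HMGCS1, IDI1 and EBP.

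In footprints 9 sterol enzymes were higher and 3 lower of 17 tested, with a median of 0.13. MSMO1 rose by 0.56 ± 0.09, DHCR7 by 0.39 ± 0.06, LSS by 0.28 ± 0.05, SQLE by 0.26 ± 0.08 and NSDHL by 0.19 ± 0.04. MVK (0.14 ± 0.06), FDFT1 (0.14 ± 0.06) and PMVK (0.13 ± 0.04) passed in footprints and not in total RNA, while CYP51A1 (0.06), SC5D (0.06) and FDPS (-0.06) passed in total RNA and not in footprints. For none of these 6 did the difference between assays pass the test of efficiency (limma adjusted p 0.0828 to 0.881). ACAT2 footprints fell by 0.15 ± 0.04, a value of -0.05 with the authors' scaling (adjusted p 0.306, limma).

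The size of these smaller rises differed between the replicate series. In wild-type cells, replicate 2 held more RNA of 17 of the 18 sterol enzymes than replicate 1 on average over the day, by a median of 0.19 (log2) and by up to 0.47 for SQLE, with PMVK as the exception at -0.16. The median over the sterol enzymes was higher in replicate 2 at 12 of 12 times, and the series did not overlap (-0.18 to -0.02 in replicate 1 and -0.01 to 0.18 in replicate 2). Wild-type footprints showed the same for 17 of 17 enzymes, by a median of 0.24. Over all genes the medians were 0.00 in both assays, the fatty acid enzymes differed by medians of -0.03 and 0.03, and knockdown cells showed no such gap (medians of -0.03 in total RNA and 0.02 in footprints). SREBF1 went the other way in wild-type cells, lower in replicate 2 by 0.34 in total RNA and by 0.50 in footprints, that is -0.34 and -0.50 as replicate 2 minus 1.

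The knockdown difference taken within replicate 1 and within replicate 2 was 0.48 and 0.03 for SQLE, 0.41 and 0.01 for LSS, 0.33 and -0.02 for CYP51A1, and 0.78 and 0.24 for MSMO1. For HMGCS1 it was 0.72 and 0.51, for IDI1 -0.71 and -0.89, for EBP -0.70 and -0.81, and for FASN 0.76 and 0.80. Without replicate 1, SQLE (0.03), LSS (0.01), CYP51A1 (-0.02), SC5D (-0.04), SREBF2 (0.08), SCAP (0.01) and STARD4 (0.11) lost their call in total RNA. The main test of the knockdown effect counts libraries of the same replicate series as independent. Where such libraries deviate together, its SEs and p-values may be too small. When each replicate series was reduced to 1 mean per treatment, 13 of the 23 genes kept their call in total RNA and 13 of the 22 in footprints. The rises of SQLE and LSS did not pass in that reduced total RNA comparison (limma adjusted p 0.184 and 0.218), while the changes of HMGCS1, IDI1, EBP, FASN and INSIG1 did.

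Among the regulators INSIG1 fell the most. Its total RNA was 18.9 to 34.3 CPM (median 27.7) in wild-type and 9.34 to 20.9 CPM (median 17.5) in knockdown libraries, and 18 of 24 knockdown libraries lay below all wild-type libraries. The difference was -0.63 ± 0.06 (adjusted p 5.97e-12, limma), and -0.59 without the 2 shallow libraries, 1 of which gave the lowest value of 9.34 CPM. INSIG1 footprints fell by 0.54 ± 0.09. INSIG2, its sister gene, fell by 0.19 ± 0.04 in total RNA (15.8 ± 1.37 to 13.8 ± 1.64 CPM), whereas its footprints gave -0.01 ± 0.06 (adjusted p 0.871, limma), and the difference between the assays did not pass the test (0.18 ± 0.07, adjusted p 0.051).

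STARD4, a cytosolic sterol carrier, at 50.2 to 80.6 CPM (median 67.1) in wild-type and 57.3 to 96.8 CPM (median 80.7) in knockdown total RNA, rose by 0.28 ± 0.05 in total RNA and by 0.37 ± 0.05 in footprints, and SCAP rose by 0.07 ± 0.02 and 0.09 ± 0.04. SREBF1, at 31.5 to 60.2 CPM (median 45.9) and 37.4 to 57.2 CPM (median 44.6), passed in neither assay (-0.02 ± 0.05 and 0.10 ± 0.08). Its difference within replicate 1 and within replicate 2 had opposite signs, -0.20 and 0.16 in total RNA, and -0.21 and 0.41 in footprints. SREBF2 was called in opposite directions, 0.10 ± 0.04 in total RNA (adjusted p 0.0122) and -0.13 ± 0.04 in footprints (adjusted p 0.00128, both limma). The total RNA value rested partly on the 2 shallow libraries, which held 166.3 and 166.1 CPM of SREBF2 where the remaining knockdown libraries held at most 127 CPM, and it was 0.06 (adjusted p 0.0490) without them. With the authors' own scaling the footprint value was -0.03 (adjusted p 0.422), at a median over all genes of 0.09. Of the 6 regulators, 3 were higher and 2 lower in total RNA, with a median of 0.03.

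The fatty acid enzymes split as well. FASN total RNA was 127 to 168 CPM (median 148) in wild-type and 215 to 298 CPM (median 251) in knockdown libraries, with no overlap, and its footprints were 823 to 1225 CPM against 1335 to 1995 CPM, also with none. The differences were 0.78 ± 0.03 (1.71-fold) and 0.65 ± 0.04 (1.57-fold). SCD, the stearoyl-CoA desaturase, rose by 0.25 ± 0.02 in total RNA and by 0.45 ± 0.03 in footprints, and ACACA (acetyl-CoA carboxylase) rose by 0.13 ± 0.02 and 0.17 ± 0.03. ACLY fell by 0.28 ± 0.02, from 286 to 342 CPM in wild-type to 234 to 284 CPM in knockdown total RNA with no overlap, and by 0.22 ± 0.03 in footprints. SCD libraries overlapped (149.7 to 235 against 202.5 to 281 CPM in total RNA), with 9 of 24 knockdown libraries above all wild-type ones, and 11 of 24 in footprints. FADS2, the delta-6 desaturase, at 120.6 to 203 CPM (median 168) in wild-type and 102 to 157 CPM (median 126) in knockdown total RNA, fell by 0.35 ± 0.03 and 0.33 ± 0.03, while FADS1, the delta-5 desaturase encoded next to it, gave -0.03 ± 0.02 and 0.01 ± 0.03 and passed in neither assay. FADS1 and FADS2 overlap each other in RefSeq, so reads in the shared part cannot be assigned with certainty. The elongases ELOVL6 and ELOVL5 did not pass in total RNA (0.01 ± 0.03 and -0.04 ± 0.02), and the footprint value of ELOVL5 (-0.09 ± 0.03) was 0.00 with the authors' scaling (adjusted p 0.917). The median of the 8 enzymes was -0.01 in total RNA and -0.04 in footprints, compared with 0.07 and 0.13 for the sterol enzymes. These medians pool both replicate series, and the contrast between the groups was not repeated in each. Within replicate 2 alone, the sterol enzymes did not have the higher median in total RNA, and the groups lay close together in footprints.

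The second comparison asked whether ribosome occupancy per mRNA (translational efficiency, footprints relative to total RNA) changed with the knockdown. Few of the genes moved. HMGCS1 (0.22 ± 0.07, adjusted p 0.00977) and SCD (0.20 ± 0.03, adjusted p 3.95e-06) gained footprints beyond their total RNA, and SREBF2 (-0.23 ± 0.05, adjusted p 0.00036) and FASN (-0.13 ± 0.05, adjusted p 0.0493) lost them (all limma). That is 4 of 31 genes, beside 13.1% of all genes called higher and 18% lower. None of the 4 calls held under every alternative. None of the 31 genes passed when each series was reduced to 1 mean per treatment, where 178 of all 11149 genes did. There limma gave 2 of 31 at an unadjusted p under 0.05. Under the authors' scaling 14 genes were called higher and 1 lower, at an all-gene median of 0.09; 80.4% of all calls were then higher, against 42.1% with TMM scaling.

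The third comparison followed the genes through the day. In wild-type cells a set of regulators and desaturases climbed from CT00 to CT22. A straight line was fitted to the 24 libraries, and its change from CT00 to CT22 was positive for 12 genes and negative for 2 in total RNA, of 32 tested, where 22.2% of all genes were called positive and 23.3% negative (limma). Of the 6 regulators 5 rose (SREBF2, SREBF1, INSIG1, STARD4 and INSIG2, with SCAP at -0.09 ± 0.06), with a median change of 0.40. Of the 8 fatty acid enzymes SCD, FADS1, FADS2 and ACACA rose and ACLY fell, with a median of 0.10. Of the 18 sterol enzymes FDFT1, SC5D and MVD rose and EBP fell, with a median of 0.07, and the median over all genes was 0.00.

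**Figure D2:**
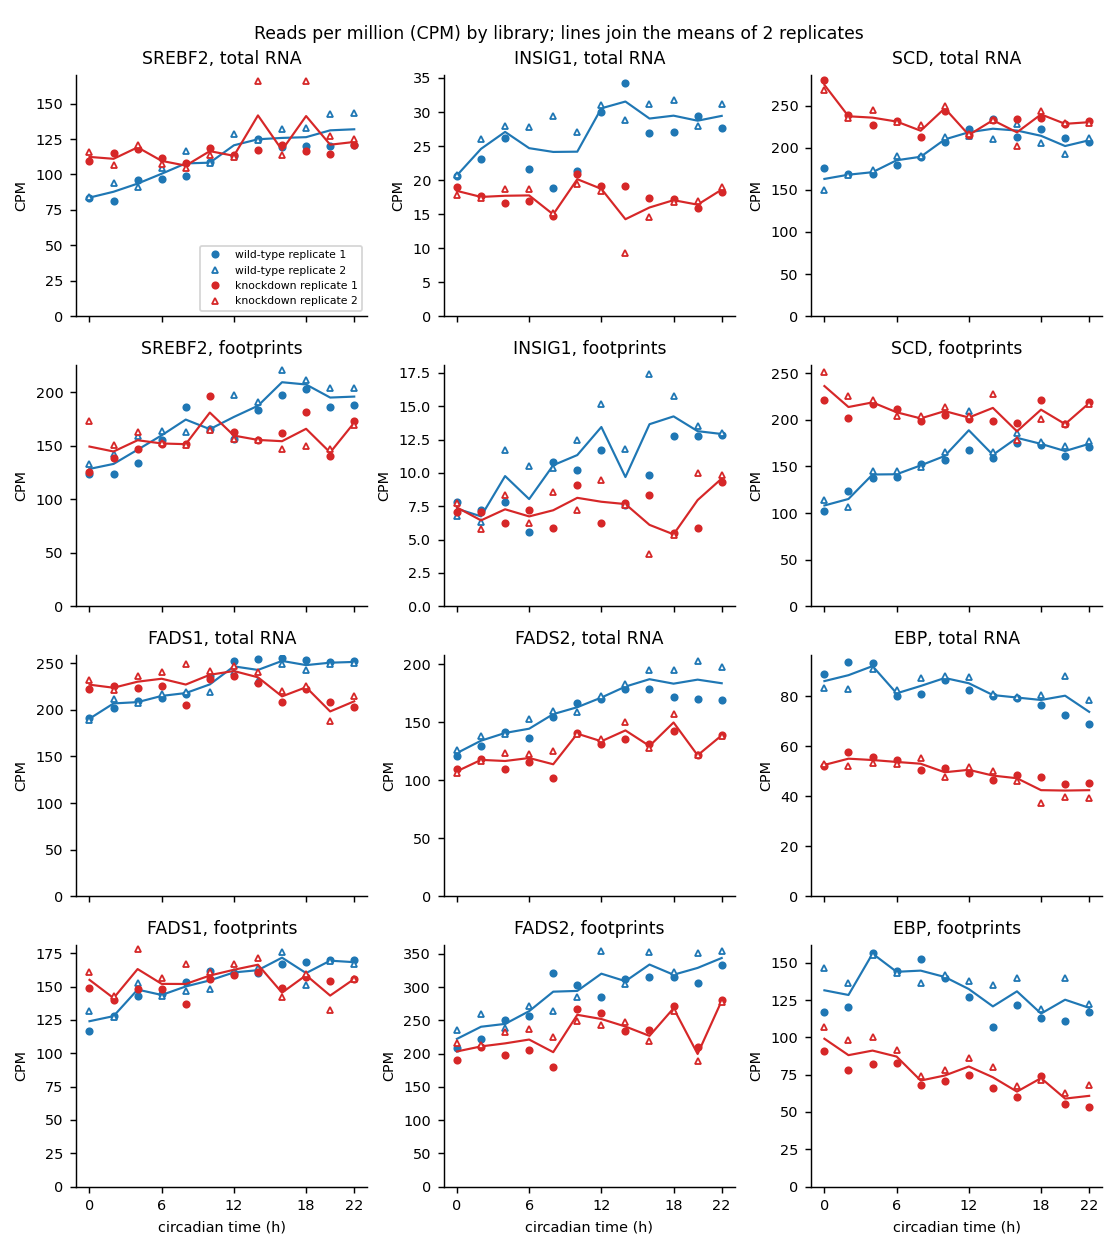
CPM (y axes, from 0) in each library over circadian time (x axes, h) for SREBF2, INSIG1, SCD, FADS1, FADS2 and EBP in total RNA and footprints; blue marks wild-type and red knockdown, filled circles replicate 1 and open triangles replicate 2, and lines join the means of the 2 replicates. Wild-type SREBF2, SCD, FADS1 and FADS2 climb through the day, knockdown SCD starts high, and the 2 knockdown SREBF2 values at 166.3 and 166.1 CPM are the shallow libraries.

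SREBF2 changed the most in total RNA. The 6 wild-type libraries at CT00, CT02 and CT04 held 81.4 to 95.97 CPM and the 6 at CT18, CT20 and CT22 held 119.8 to 143 CPM, with means of 88.4 ± 6.23 and 130 ± 11.3 CPM (SD, n = 6). The early and late libraries did not overlap, and the fitted change was 0.70 ± 0.06 (adjusted p 1.23e-09, limma). Footprints rose from 123.8 to 159 CPM early to 187 to 211 CPM late, by 0.68 ± 0.08. In knockdown total RNA the early libraries (107 to 120.6 CPM) overlapped the late ones (115 to 166 CPM).

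FADS2 rose from 120.6 to 142 CPM early to 169.6 to 203 CPM late in wild-type total RNA, by 0.62 ± 0.06, and from 208 to 259 CPM to 307 to 355 CPM in footprints, by 0.61 ± 0.07. FADS1 rose from 189 to 212 CPM to 242 to 253 CPM in total RNA, by 0.42 ± 0.04. SCD rose from 149.7 to 176 CPM to 193 to 223 CPM in total RNA (0.43 ± 0.07) and from 102 to 146 CPM to 162 to 178 CPM in footprints (0.65 ± 0.09). For these desaturases the early and late wild-type libraries did not overlap, except for FADS1 footprints, where 116 to 153 CPM met 151.5 to 170.1 CPM.

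INSIG1 rose by 0.45 ± 0.11 in wild-type total RNA, where early libraries of 20.6 to 28.0 CPM met late ones of 27.1 to 31.8 CPM. Its footprints, from 6.29 to 11.7 CPM early, were 12.7 to 15.7 CPM late with no overlap, a change of 0.95 ± 0.20 (adjusted p 0.000378, limma). SREBF1 rose by 0.57 ± 0.12 in total RNA and 0.75 ± 0.19 in footprints, but with the series apart: the early libraries were 40.5 to 47.2 CPM in replicate 1 and 31.5 to 33.9 CPM in replicate 2, and the late ones 55.8 to 58.7 CPM and 45.0 to 46.8 CPM. Within each series the late SREBF1 libraries lay above the early ones. MVD rose by 0.21 ± 0.09 in total RNA, and that value was -0.03 without replicate 2 (adjusted p 0.765).

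In total RNA of wild-type cells 4 genes had all late libraries above all early ones (SREBF2, SCD, FADS1 and FADS2; 8.19% of all genes did) and none had them below (10% of all genes did). In wild-type footprints there were again 4 above (SREBF2, INSIG1, SCD and FADS2; 4.96% of all genes) and none below (3.72%). By the fitted trend 11 of 31 genes were called in wild-type footprints, 9 positive (INSIG1, SREBF1, SREBF2, SCD, FADS2, FADS1, MVD, SCAP and SC5D) and 2 negative (EBP and ELOVL5), compared with 13.4% and 12.6% of all genes. Under the authors' scaling this split was 8 positive and 4 negative, as the share of positive calls over all genes moved from 51.5% to 38.1%. Of the 11 calls, 6 held under every alternative tried, and those of MVD, SCAP, SC5D, EBP and ELOVL5 did not.

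In knockdown cells fewer of the genes climbed, and some sterol enzymes fell. In total RNA 7 of 32 genes were called, FADS2 (0.33 ± 0.07) and SREBF1 (0.24 ± 0.08) upward and EBP (-0.41 ± 0.06), ACAT2 (-0.29 ± 0.05), FDPS (-0.27 ± 0.06), SC5D (-0.23 ± 0.07) and MVK (-0.19 ± 0.06) downward, where 17.1% of all genes were positive and 18.1% negative. Without the 2 shallow libraries 12 were called, SREBF2 (0.12), STARD4 (0.17), ELOVL6 (-0.20), SCD (-0.16) and FADS1 (-0.16) being added. In footprints 4 of 31 were called: EBP (-0.65 ± 0.09), ACAT2 (-0.39 ± 0.06), FADS2 (0.30 ± 0.10) and STARD4 (0.29 ± 0.10), beside 12.2% of all genes positive and 13.4% negative.

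EBP fell from 52.3 to 57.8 CPM in the early knockdown libraries to 37.4 to 47.6 CPM in the late ones, and in footprints from 78.1 to 107.1 CPM to 53.4 to 73.9 CPM. Neither pair of ranges overlapped. In total RNA ACAT2, MVK and FDPS shared that gap with EBP, 4 genes in all with late below early (9.62% of all genes) and none with late above early (6.7%). The spans of ACAT2, MVK and FDPS each overlap another counted gene in RefSeq, and that of EBP does not. In knockdown footprints the gap held for ACAT2 and EBP (5.59% of all genes below), and for none above (3.39%). The fall of EBP was also called in wild-type total RNA, where it was -0.20 ± 0.05, and -0.05 without replicate 1 (adjusted p 0.478).

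**Figure D3:**
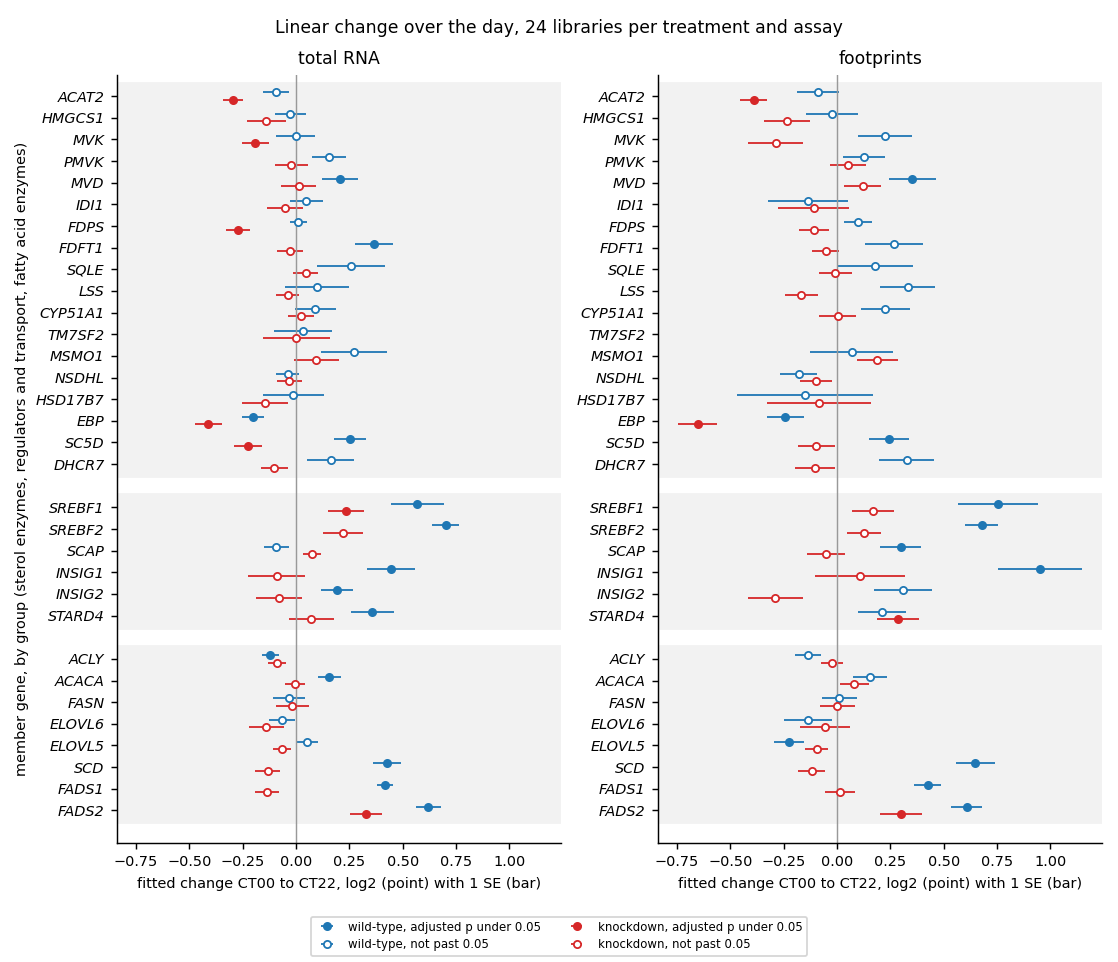
Fitted change of each gene from CT00 to CT22 (x axis, log2; points, with bars of 1 SE) in total RNA (left) and footprints (right), in wild-type (blue) and knockdown (red) cells, with filled points where the adjusted p was under 0.05. The wild-type points of SREBF2 (0.70 and 0.68), FADS2 (0.62 and 0.61) and INSIG1 (0.45 and 0.95) lie far to the right, and the knockdown points of EBP (-0.41 and -0.65) far to the left.

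The difference of the trends between treatments was tested as an interaction. In total RNA it was negative for 8 genes and positive for none (10.5% and 10.6% of all genes), that is, the change over the day was lower in knockdown cells for FADS1 (-0.54 ± 0.07, adjusted p 5.82e-08), SCD (-0.54 ± 0.09), INSIG1 (-0.52 ± 0.18), SREBF2 (-0.46 ± 0.12), SC5D (-0.46 ± 0.10), FDFT1 (-0.38 ± 0.11), FADS2 (-0.28 ± 0.10) and FDPS (-0.27 ± 0.07). At an unadjusted p under 0.05, limma gave 1 gene with a positive difference, and edgeR's quasi-likelihood test called none positive either. In footprints the difference was negative for 6 genes (SCD -0.77 ± 0.11, INSIG2 -0.60 ± 0.18, SREBF2 -0.56 ± 0.11, LSS -0.50 ± 0.15, FADS1 -0.42 ± 0.09 and EBP -0.42 ± 0.13) and positive for none, with none at an unadjusted p under 0.05 in limma either; of all genes 5.55% were negative and 3.71% positive. INSIG1 footprints missed the threshold (-0.85, adjusted p 0.0512, limma). The calls of SC5D, SCD and FADS1 in total RNA, and of SCD in footprints, held under every alternative tried.

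SCD showed the difference of the trends most plainly. At CT00 its total RNA was 176 and 149.7 CPM in the wild-type replicates and 281 and 269 CPM in the knockdown replicates. At CT22 it was 207 and 211 CPM in wild-type and 232 and 229.5 CPM in knockdown. Its footprints were 102 and 114 CPM at CT00 in wild-type against 221 and 252 CPM in knockdown, and 171 and 178 CPM against 219 and 217 CPM at CT22. The gap between treatments was widest at the first collection, and at CT12 the treatments overlapped in both assays.

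**Figure D4:**
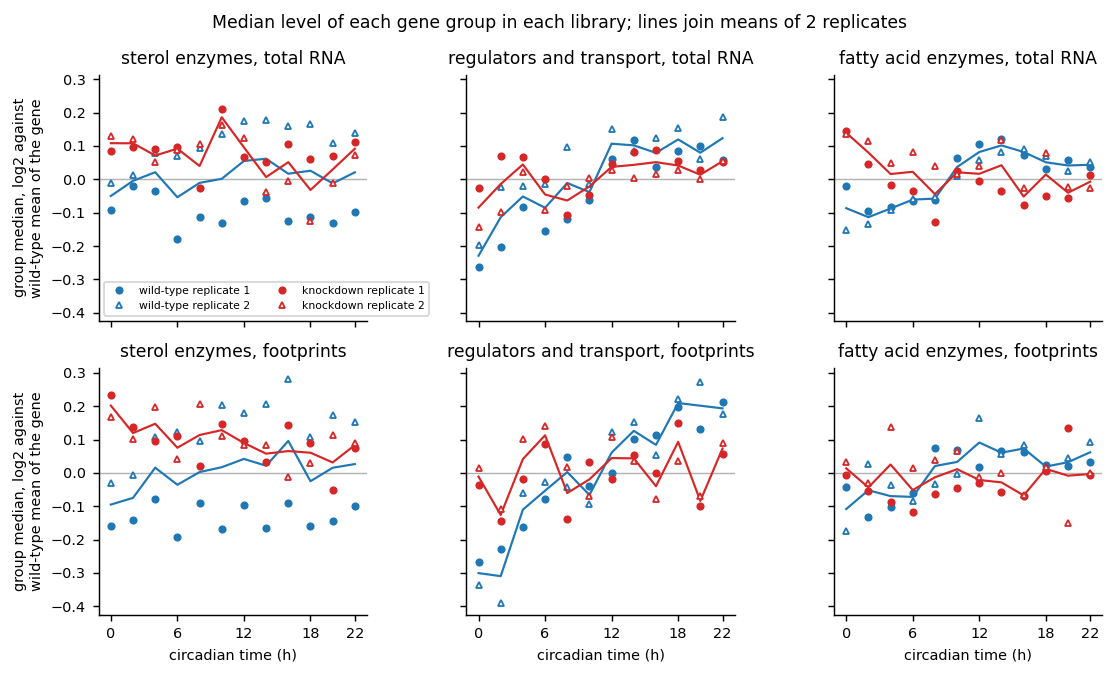
Median over the genes of each group of the log2 level relative to the gene's wild-type mean (y axes), in every library over circadian time (x axes, h), for total RNA (top) and footprints (bottom); colours and marks as for the time courses, lines joining the means of 2 replicates. Wild-type regulators climb from between -0.26 and -0.02 early to between 0.06 and 0.19 late in total RNA, and the wild-type sterol enzymes of replicate 2 lie above those of replicate 1 at all 12 times.

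By group, the median of the regulators in wild-type total RNA lay between -0.26 and -0.02 in the 6 early libraries and between 0.06 and 0.19 in the 6 late ones, without overlap. The fatty acid enzymes went from between -0.15 and -0.02 to between 0.02 and 0.07, also without overlap. The sterol enzymes overlapped (-0.09 to 0.08 against -0.13 to 0.17). In wild-type footprints the regulators did not overlap (-0.39 to -0.06 against 0.13 to 0.27), while the fatty acid enzymes did (-0.17 to 0.03 against 0.01 to 0.09). In knockdown cells the early and late ranges of all 3 groups overlapped in total RNA. There the sterol enzymes were at 0.05 to 0.13 early and -0.12 to 0.11 late. The difference of the trends had medians of -0.17 for sterol enzymes, -0.29 for regulators and -0.12 for fatty acid enzymes in total RNA, beside 0.01 over all genes.

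A 24 h cosine was fitted as well, although with 1 cycle sampled a cosine and a steady change cannot be told apart. In wild-type total RNA 8 of 32 genes were called (22.5% of all genes), with amplitudes (log2, fitted mean to peak) of 0.27 for SREBF2, 0.25 for FADS2, 0.23 for SREBF1, 0.21 for SCD, 0.18 for INSIG1, 0.16 for FADS1, 0.15 for FDFT1 and 0.09 for ACACA, and all 8 fitted peaks fell between CT14.3 and CT16.0. With the replicate number as a block, which pairs the wild-type total RNA libraries, 17 genes were called. With a linear drift in the model 1 remained, SCD (adjusted p 0.00229, limma). In wild-type footprints 7 of 31 were called (7.01% of all genes): INSIG1, SCD, SREBF2, FADS2, FADS1 and SC5D peaked between CT14.6 and CT16.0 and EBP at CT6.6. None of the 31 passed with a drift, but only 7 of all 10736 genes did, so that count says little about these genes. At an unadjusted p under 0.05, limma gave 6 of 31 with a drift.

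In knockdown total RNA 8 of 32 genes were called rhythmic, below the 33.9% of all genes, with EBP (amplitude 0.17), FDPS (0.12), ACAT2 (0.11) and SC5D (0.11) peaking between CT4.0 and CT6.2 and FADS2 (0.15) and SREBF1 (0.14) near CT15. ELOVL5 and FADS1 were also called. With a linear drift in the model, ELOVL5 alone of the 8 kept its call. That call was lost with replicate 1 or replicate 2 left out. In knockdown footprints ACAT2 (0.15) and EBP (0.21) were called, of 31, beside 18.2% of all genes. The change of rhythm with the knockdown passed for 6 genes in total RNA (10.9% of all genes), SCD (0.26), FADS1 (0.20), SC5D (0.19), INSIG2 (0.19), FDFT1 (0.18) and FDPS (0.13), and for 3 in footprints (3.85%), SCD (0.34), INSIG2 (0.31) and SREBF2 (0.23). Of these 9 changes, that of SCD in total RNA held under every alternative.

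Last, the level of ribosome occupancy per mRNA was described for each gene as log2 footprint CPM minus log2 total RNA CPM, a value that also holds effects of transcript and coding length. In wild-type cells FASN stood at 2.77 (percentile 99.2 among 11149 genes), SREBF1 at 1.42 (94.4), HMGCS1 at 1.37 (93.9), PMVK at 1.2 (91.8) and ACLY at 1.1 (90.4). At the low end HSD17B7 (-1.33), INSIG1 (-1.33) and SCAP (-1.26) lay at percentiles 12.6, 12.6 and 13.96. INSIG2, at 0.19 (percentile 60.6), and INSIG1 thus differed by more than 1 log2 unit, and FADS2 (0.84) and FADS1 (-0.58) likewise. The medians were at percentile 64.8 for sterol enzymes, 52.0 for regulators and 63.6 for fatty acid enzymes.

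**Figure D5:**
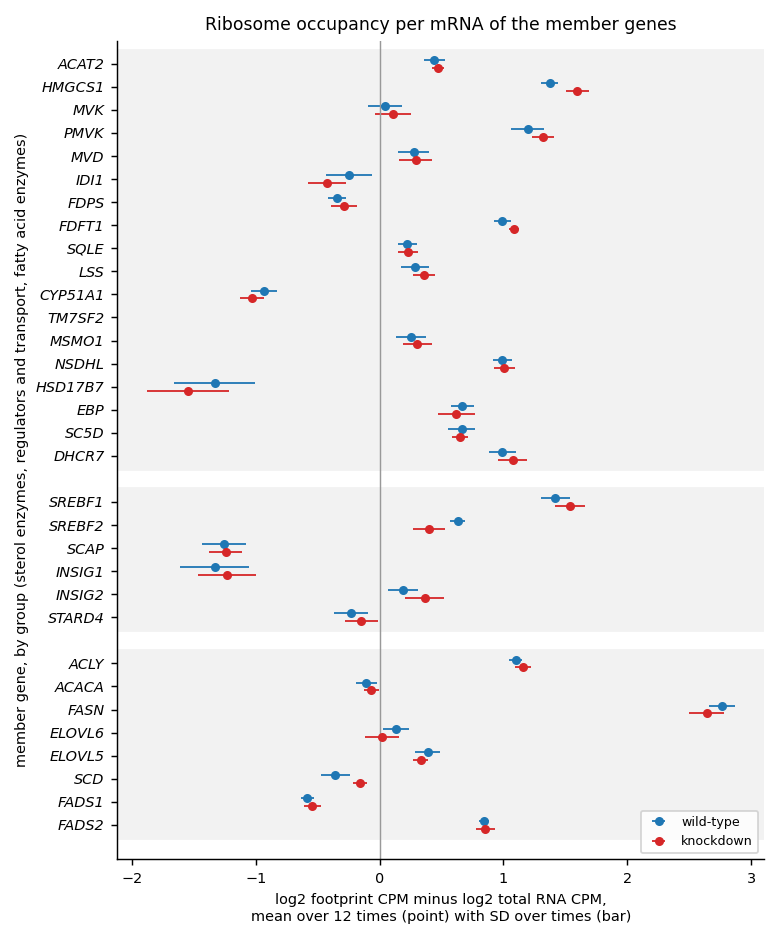
Log2 footprint CPM minus log2 total RNA CPM of each gene (x axis; points are means over 12 times, bars the SD over times) in wild-type (blue) and knockdown (red) cells. FASN lies far to the right in both treatments (2.77 and 2.64), HSD17B7, INSIG1 and SCAP to the left, and most pairs of points lie within their bars of each other.

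Other genes of the same pathways were counted from lists, with the threshold above. Their counts in knockdown total RNA are to be read beside the 41.8% of all genes called higher and 39.9% called lower, and none is a result about its list. Of 5 other sterol enzymes, 3 rose in knockdown total RNA, GGPS1, which makes geranylgeranyl diphosphate, among them (0.36 ± 0.03), and LBR, a sterol reductase of the nuclear envelope, fell (-0.32 ± 0.03). Of 12 genes of SREBP processing and sterol-sensed turnover, 6 rose and 4 fell in total RNA. FBXW7, a ubiquitin ligase subunit that marks nuclear SREBPs for destruction, rose by 0.45 ± 0.03 in total RNA and by 1.18 ± 0.07 in footprints, and its efficiency rose by 0.74 ± 0.08; TRIB1 rose by 1.08 ± 0.06 and 1.12 ± 0.08. The proteases that release SREBPs, MBTPS1 (-0.10 ± 0.02) and MBTPS2 (-0.22 ± 0.04), fell in total RNA. None of these 12 genes changed its trend with the knockdown by the adjusted test in either assay. Over all genes 10.6% were called positive and 10.5% negative in total RNA, and 3.71% and 5.55% in footprints. With 12 genes, the absence of calls is no result about this list.

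Of 12 genes of sterol uptake, transport and storage, 7 rose and 4 fell in total RNA, beside 41.8% of all genes higher and 39.9% lower. SOAT1, which esterifies cholesterol, rose by 0.61 ± 0.05, and NPC1, which exports it from lysosomes, by 0.57 ± 0.03. The lipoprotein receptor VLDLR fell by 0.82 ± 0.08, and its trend differed between treatments by -0.84 ± 0.20 in total RNA (adjusted p 0.00211, limma) and -1.01 ± 0.19 in footprints. Of 26 tested genes of other fatty acid and triglyceride synthesis steps, 14 rose and 10 fell in total RNA, to be read beside the same shares of all genes. ELOVL1, an elongase of saturated chains, rose by 0.72 ± 0.03, and PTPLAD1, which encodes a dehydratase of the elongation cycle, fell by 1.32 ± 0.02. Over the 26 genes the trend difference in total RNA was positive for 4, FADS3 (0.73 ± 0.12) and DGAT1 (0.39 ± 0.11) among them, beside 10.6% of all genes, and negative for 2, beside 10.5%, namely LPIN1 (-0.22 ± 0.08) and the citrate carrier SLC25A1 (-0.22 ± 0.08). In footprints the 2 of 25 genes called, FADS3 (0.64 ± 0.13) and HSD17B12 (0.54 ± 0.15), were positive, beside 3.71% of all genes positive and 5.55% negative.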

How the data were processed

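Total RNA and ribosome footprints of U2-OS cells were analysed from 8 deposited tables, 1 per treatment, assay and replicate, with 12 times in each. The deposited values are a normalised signal: per the submitters' processing notes the authors aligned reads with STAR 2.3.0e to GRCh37 (hg19), counted them with HTSeq 0.5.4p1 and normalised with DESeq2. The table, not the column name, gives treatment, assay and replicate. Each library's values were whole multiples of 1 unit (100% of values within 0.001 read), so whole reads were recovered and used throughout. Strand use in counting is not given in the sources used here, and 20 of the 32 genes overlap another RefSeq gene.

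Genes were kept by filterByExpr (minimum count 10, by treatment), given TMM factors, separately for the 2 assays (edgeR 4.0.16), and then tested as log2(CPM + 0.25) with limma 3.58.1 (R 4.3.3, trend and robust moderation). The threshold was a Benjamini-Hochberg adjusted p under 0.05 over all genes, in 15 comparisons. Fold changes on this scale understate those of low genes. The code was tested on simulated data. Genes named are the 32 members, and from each further list up to the 2 largest calls in each direction with a mean of at least 1 CPM. One gene of these further lists is not reported here. Members and lists were chosen with earlier results of these data known. The labels do not say that replicates were separate cultures, so p-values measure the spread between these libraries, which may be technical. Counting error is largest for footprints of low genes such as TM7SF2.

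Alternatives were median-ratio scaling (DESeq2 1.42.0), the deposited scaling, a pseudocount of 1, no filter, edgeR's quasi-likelihood test, a replicate block, each replicate left out, a linear drift, series means, and the 2 shallow libraries left out. In wild-type total RNA, libraries with the same replicate number deviated together in 66 of 66 pairs of times (correlations 0.321 to 0.565), so the number pairs them. Wild-type total RNA and footprints of the same number also did so in 12 of 12 times (0.213 to 0.423), and wild-type footprints in 59 of 66 pairs (-0.05 to 0.457, short of every pair). In knockdown cells the counts were 5 of 66 (total RNA), 4 of 66 (footprints) and 7 of 12 (between assays), and between treatments 1 of 12 (total RNA) and 4 of 12 (footprints). A pair was counted where its correlation was over 0.1. The main fits held no replicate block. For the knockdown effect they thus treat libraries that deviate together as independent, and its SEs and p-values may be too small.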

Additional observations from a re-analysis of the deposited data

Results flagged for a closer look

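The course over the day differed between treatments for the genes below by a test of the difference itself (limma, interaction of treatment with time, adjusted p under 0.05). For the fitted change from CT00 to CT22 in total RNA, knockdown minus wild-type was -0.54 for SCD, -0.54 for FADS1, -0.52 for INSIG1, -0.46 for SREBF2, -0.46 for SC5D, -0.38 for FDFT1, -0.28 for FADS2 and -0.27 for FDPS. Leaving out the 2 shallow libraries gave -0.59 for SREBF2. In footprints it was -0.77 for SCD, -0.60 for INSIG2, -0.56 for SREBF2, -0.50 for LSS, -0.42 for FADS1 and -0.42 for EBP. All 14 values are negative, the desaturases SCD and FADS1 and the regulator SREBF2 being called in both assays and so counted in each. Over all genes 10.5% were called negative and 10.6% positive in total RNA, and 5.55% and 3.71% in footprints. Of the 8 calls in total RNA 3 held under every alternative tried, and of the 6 in footprints 1, that of SCD.

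For the fitted 24 h cosine, the size of the difference vector between treatments (log2) was 0.26 for SCD, 0.20 for FADS1, 0.19 for SC5D, 0.19 for INSIG2, 0.18 for FDFT1 and 0.13 for FDPS in total RNA, and 0.34 for SCD, 0.31 for INSIG2 and 0.23 for SREBF2 in footprints. INSIG2 was called by the cosine in both assays and by the linear trend in footprints only.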

How the results depend on the processing

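Of the 23 total RNA calls of the knockdown effect, 12 held under every alternative (ACAT2, HMGCS1, IDI1, MSMO1, NSDHL, EBP, DHCR7, INSIG1, ACLY, FASN, SCD and FADS2), and of the 22 footprint calls also 12. Series means gave 13 calls in each assay, and leaving out a replicate 20 to 26 and 17 to 20. For efficiency the deposited scaling gave 15 calls, series means 0 (2 at an unadjusted p under 0.05, limma) and either replicate left out 3. The wild-type total RNA rhythm had 17 calls with the replicate block, 1 with a linear drift and 10 to 16 without a replicate, and its trend 20 with the block and 17 to 19 without a replicate. With a drift the rhythm calls were 0 in wild-type footprints (7 of all 10736 genes passed) and 2 in knockdown total RNA. They were 0 in knockdown footprints (262 of all 10635 genes passed), and the rhythm changes were 1 in total RNA and 1 in footprints. Without a replicate, rhythm calls were 0 to 5 in wild-type footprints, 2 to 4 in knockdown total RNA and 0 in knockdown footprints (7 at an unadjusted p in wild-type footprints without replicate 2, and 6 in knockdown footprints without either, limma), and rhythm changes 4 to 7 in total RNA and 0 to 3 in footprints. Trend calls without a replicate were 6 to 14 in wild-type footprints, 4 to 6 in knockdown total RNA and 2 to 3 in knockdown footprints. Without the shallow libraries the knockdown total RNA trend had 12. The trend change in footprints had 10 calls with the replicate block and 1 to 10 without a replicate, and in total RNA 6 to 11. The trend of MVD in wild-type total RNA was -0.0284 without replicate 2 and 0.44 without replicate 1, and the rhythm of EBP in knockdown footprints had an amplitude of 0.0568 with a drift; the cause was not tested. On the given strand alone CCAAT was found in 12 of the genes' 38 windows and in 19.6% of all windows. The replicate block left the number of efficiency calls at 5 against 4, and the count of each other comparison not named here within 1.5 times. Footprint depth, 2.50 to 5.82 in units of 1000000 reads, limits low genes such as INSIG1.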

Other observations

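Genes of sterol efflux and fatty acid burning, outside the synthesis pathways, were tested in the same way (limma, adjusted p under 0.05). Over all genes 41.8% were called higher and 39.9% lower in knockdown total RNA. The share called in either direction did not exceed that of all genes in these lists. By direction, the share called higher was above that of all genes in both lists, and the share called lower was below it. With 7 and 19 genes tested, none of these shares is a result about its list. Of 7 tested genes of the LXR and efflux list, 3 rose and 2 fell in knockdown total RNA. The cholesterol exporters ABCG1 (means of 15.96 and 27.5 CPM, n = 24 each, 0.99 ± 0.17) and ABCA1 (0.96) were among those that rose, and the LXR partner RXRA fell (-0.19). Both exporters also rose through the day in wild-type total RNA, ABCG1 by 1.66 and ABCA1 by 0.85, and in knockdown total RNA, by 0.58 and 0.83. No change of trend with the knockdown was called for the 7 genes in total RNA, beside 10.6% of all genes positive and 10.5% negative. Of 19 genes of fatty acid oxidation 10 rose and 5 fell in knockdown total RNA. ACADVL, the very long chain acyl-CoA dehydrogenase, rose by 0.46 ± 0.04, while CPT1A, which carries out the first step of mitochondrial import, fell by 1.16 (2.27 to 0.882 CPM) and the peroxisomal enzyme EHHADH by 1.06 ± 0.04. The coactivator PPARGC1A, at mean levels of 1.7 CPM in wild-type and 0.638 in knockdown, rose by 2.22 over the wild-type day, and its trend differed between treatments by -2.37 (adjusted p 1.6e-06, limma).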
